A study of Mus musculus with 4 samples.

Results

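The genes described here are the nuclear genes for the subunits of oxidative phosphorylation, the chain of 5 protein complexes in the inner mitochondrial membrane that makes most of a cell's ATP. Members were all nuclear protein-coding genes whose symbol begins with Nduf, Cox4 to Cox8, Uqcr or Atp5, together with Sdha, Sdhb, Sdhc and Sdhd. This rule found 96 genes of 21883 in a RefSeq table of the mouse build. It uses names alone and no measured value, and it also takes in 8 complex I assembly factors with Ndufaf symbols.

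Complex I (Nduf genes) takes electrons from NADH and complex II (Sdh genes) takes them from succinate. Complex III (Uqcr genes) passes them to cytochrome c, complex IV (Cox genes) passes them on to oxygen, and complexes I, III and IV pump protons across the membrane. ATP synthase, called complex V (Atp5 genes), uses the returning protons to make ATP. Cartilage has no blood vessels, and its chondrocytes are known for making much of their ATP by glycolysis. The promoters of respiratory chain genes are known to bind NRF1, the ETS family factor GABP and YY1.

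The cells were primary chondrocytes of C57Bl/6 mice in micromass culture, in which cells plated at high density lay down cartilage matrix. One group was the Hdac3 knockout, transduced with Cre recombinase adenovirus (here Cre). The control, wild-type per its label, was transduced with GFP adenovirus (here GFP). HDAC3 is a deacetylase that removes acetyl groups from histones, and acetylation of histone H3 at lysine 27 (H3K27ac) marks active promoters and enhancers. Each group had 1 library of H3K27ac chromatin immunoprecipitation, and 2 input libraries named in the series were not analysed here. No group was replicated, so no test between the groups was possible and each difference below is one between 2 libraries. The share of cells that the adenovirus reached, and whether animals were pooled, is not given in the sources used here.

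The deposited Cre list held 13130 peaks and the GFP list 12873. The summit pileup, the number of fragments over a peak's highest point, had a median of 12 in both lists, and the background expected at a peak was 1.01 fragments in Cre and 0.949 in GFP, a ratio of 1.06. The sources used here do not state read totals. All 7 chondrocyte markers checked (Col2a1, Acan, Sox9, Col9a1, Comp, Matn3 and Hapln1) had a peak within 10 kb in both lists. Of the 10 markers of other cells, none had one in Cre. In GFP, 1 of 3 fibroblast markers had 5 peaks and 1 of 3 macrophage markers had 3 peaks. The part of those cells in the results below was not tested.

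Oxidative phosphorylation genes carried H3K27ac at a gene end more often than protein-coding genes at large, in both cultures. A gene was called marked when a deposited peak overlapped the window of 1 kb on each side of either annotated end by at least 1 bp (a boundary peak). In the Cre list 37 of the 96 members were marked, 38.5% with an exact 95% binomial interval of 28.8 to 49.0, against 13.5% of all nuclear protein-coding genes. In the GFP list 31 were marked, 32.3% (23.1 to 42.6), against 14% of all genes. The intervals cover counting error only, and those of the 2 lists overlapped. The share was lower than that of the cytosolic ribosomal protein genes, of which 64 of 84 were marked in Cre (76.2%) and 58 in GFP (69.0%). Of the proteasome genes, with Psm symbols, 13 of 51 were marked in Cre (25.5%, 14.3 to 39.6) and 17 in GFP (33.3%, 20.8 to 47.9).

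Of the 96 members, 25 were marked in both lists and 53 in neither, while 12 were marked by Cre peaks alone and 6 by GFP peaks alone. Among all genes, 9.26% were marked in both lists, 4.28% in Cre alone, 4.78% in GFP alone and 81.7% in neither. Thus 43 members had a boundary peak in at least 1 list, 44.8% (34.6 to 55.3). Of the 53 members without one, 39 had no peak within 10 kb of the gene in either list. The same count over all unmarked genes is not given here, so it does not set the members apart.

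**Figure D1:**
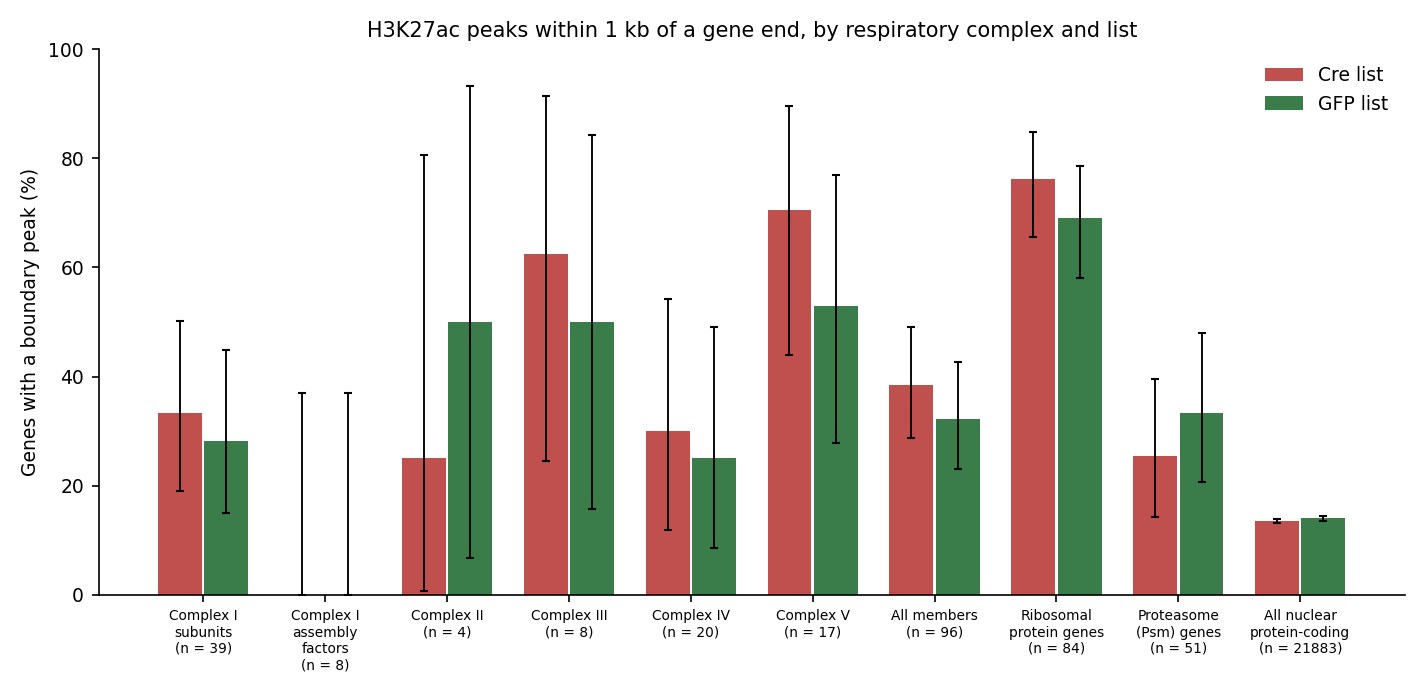
Share of genes with an H3K27ac peak within 1 kb of a gene end (vertical axis, percent) in the Cre and GFP lists, for each respiratory complex, all 96 members, ribosomal protein and proteasome genes, and all 21883 nuclear protein-coding genes. Bars are shares of 1 library and whiskers exact 95% binomial intervals; complex V stands at 70.6% and 52.9%, complex I at 33.3% and 28.2%, and the complex I assembly factors at 0.

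The marked share was uneven across the chain. It was highest in complex V, with 12 of 17 genes in Cre (70.6%, 44.0 to 89.7) and 9 in GFP (52.9%, 27.8 to 77.0). Complex III had 5 of 8 in Cre (62.5%, 24.5 to 91.5) and 4 in GFP (50%, 15.7 to 84.3). Complex I subunits had 13 of 39 in Cre (33.3%, 19.1 to 50.2) and 11 in GFP (28.2%, 15 to 44.9). Complex IV had 6 of 20 in Cre (30%, 11.9 to 54.3) and 5 in GFP (25%, 8.66 to 49.1). Complex II had 1 of 4 in Cre and 2 in GFP. None of the 8 complex I assembly factors was marked in either list, which allows a share of up to 36.9%. The plot of shares by complex shows that the intervals of the 5 complexes overlap, so their order is not resolved at these gene numbers. The interval of the assembly factors lies below that of complex V in Cre. All genes stood at 13.5% in Cre and 14% in GFP. In both lists these values lie below the intervals of complexes I, III and V. They lie within those of complexes II and IV and of the assembly factors.

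Within ATP synthase, the c ring was the part with every gene marked in both lists. This rotating ring, through which protons pass, is encoded in mice by 3 genes for the same mature protein, and all of them, Atp5g1, Atp5g2 and Atp5g3, were marked in both lists. In the F1 head, where ATP is made, the genes for the alpha subunit (Atp5a1), the catalytic beta subunit (Atp5b) and the central shaft (Atp5c1) were marked in both lists. Those for the small delta and epsilon subunits, Atp5d and Atp5e, were marked in neither. In the peripheral stalk, which holds the head still, Atp5j (subunit F6) was marked in both lists, Atp5pb (subunit b) and Atp5o (the oligomycin sensitivity protein at the top of the stalk) in Cre alone, and Atp5h (subunit d) in neither. Among small membrane subunits, Atp5l and Atp5md were marked in both lists, Atp5mpl in Cre alone, and Atp5k and Atp5j2 in neither.

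In complex I, 3 of the 7 nuclear genes for the catalytic core were marked, each with a different call. That is 42.9% in at least 1 list (9.90 to 81.6), beside 41.0% of complex I subunits and 18.3% of all genes. Ndufs1, the largest core subunit, which holds iron-sulphur clusters, was marked in both lists, Ndufs3 in Cre alone and Ndufv2 in GFP alone. Ndufs7, Ndufs8 and Ndufv1 were among those marked in neither. The other genes marked in both lists encode accessory subunits: Ndufa5, Ndufa6, Ndufa7, Ndufa10, Ndufa11, Ndufb7 and Ndufb9. In complex II the membrane anchor Sdhc was marked in Cre alone, the anchor Sdhd and the iron-sulphur subunit Sdhb in GFP alone, and the flavoprotein Sdha in neither, so that no gene of the complex was marked in both cultures. In complex III, Uqcrh (the hinge protein near cytochrome c1) and the small subunits Uqcr10 and Uqcr11 were marked in both lists. The core protein Uqcrc2 and the small subunit Uqcrb were marked in Cre alone, Uqcrq in GFP alone, and Uqcrc1 and Uqcrfs1 (the Rieske iron-sulphur protein) in neither.

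Complex IV holds pairs of isoforms, of which one is widely expressed and the other is restricted to tissues such as heart, muscle, lung or testis. Cox4i2, the isoform of subunit 4 known from lung and from low oxygen, and Ndufa4l2, a paralog of Ndufa4 known to be induced by hypoxia, were marked in both lists. Their widely expressed partners were marked in both lists for Ndufa4, which despite its name is counted here with complex IV, and in neither list for Cox4i1. The other 6 restricted isoforms (Cox6a2, Cox6b2, Cox7a1, Cox7b2, Cox8b and Cox8c) were marked in neither. Of 7 widely expressed partners, Cox6b1 and Ndufa4 were marked in both lists and Cox4i1, Cox6a1, Cox7a2, Cox7b and Cox8a in neither. Thus 2 of 8 restricted isoforms and 2 of 7 partners were marked. All boundary peaks of Ndufa4l2 lay at an end shared with Shmt2, and those of Ndufa4 at an end shared with Phf14. These peaks cannot be assigned to 1 of the genes. For Ndufa4l2 and Cox4i2 no strand is given, so whether the marked end is a start is not known here. Cox7a2l, known as a factor that joins complexes III and IV into supercomplexes, was marked in both lists and Cox7c in Cre alone. Cox5a, Cox5b and Cox6c had no boundary peak.

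Gene ends in the annotation do not always meet a start in use. Cox5a had a peak in both lists within 1 kb of a RefSeq start that lies 3904 bp from its annotated end, with a fold enrichment of 4.69 in Cre and 8.21 in GFP. Cox7a2 gained a Cre peak in the same way (fold 7.81) and Ndufa13 a GFP peak (fold 4.52), and all 3 stay in neither list in the counts above.

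Peaks at members were about as strong as those at other gene ends. Fold enrichment, a value of the authors' peak caller, is the summit pileup over the expected pileup with 1 added to both, and it ranks peaks within its own list. The 52 boundary peaks of members in the Cre list had a median fold of 6.47 (5.98 to 6.97), the same as the 6.47 of all boundary peaks. The 45 in the GFP list had a median fold of 7.18 (5.64 to 7.68), against 6.67. Summit pileups at members ran from 7 to 39 fragments in Cre and from 8 to 46 in GFP, so that most rest on few fragments.

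**Figure D2:**
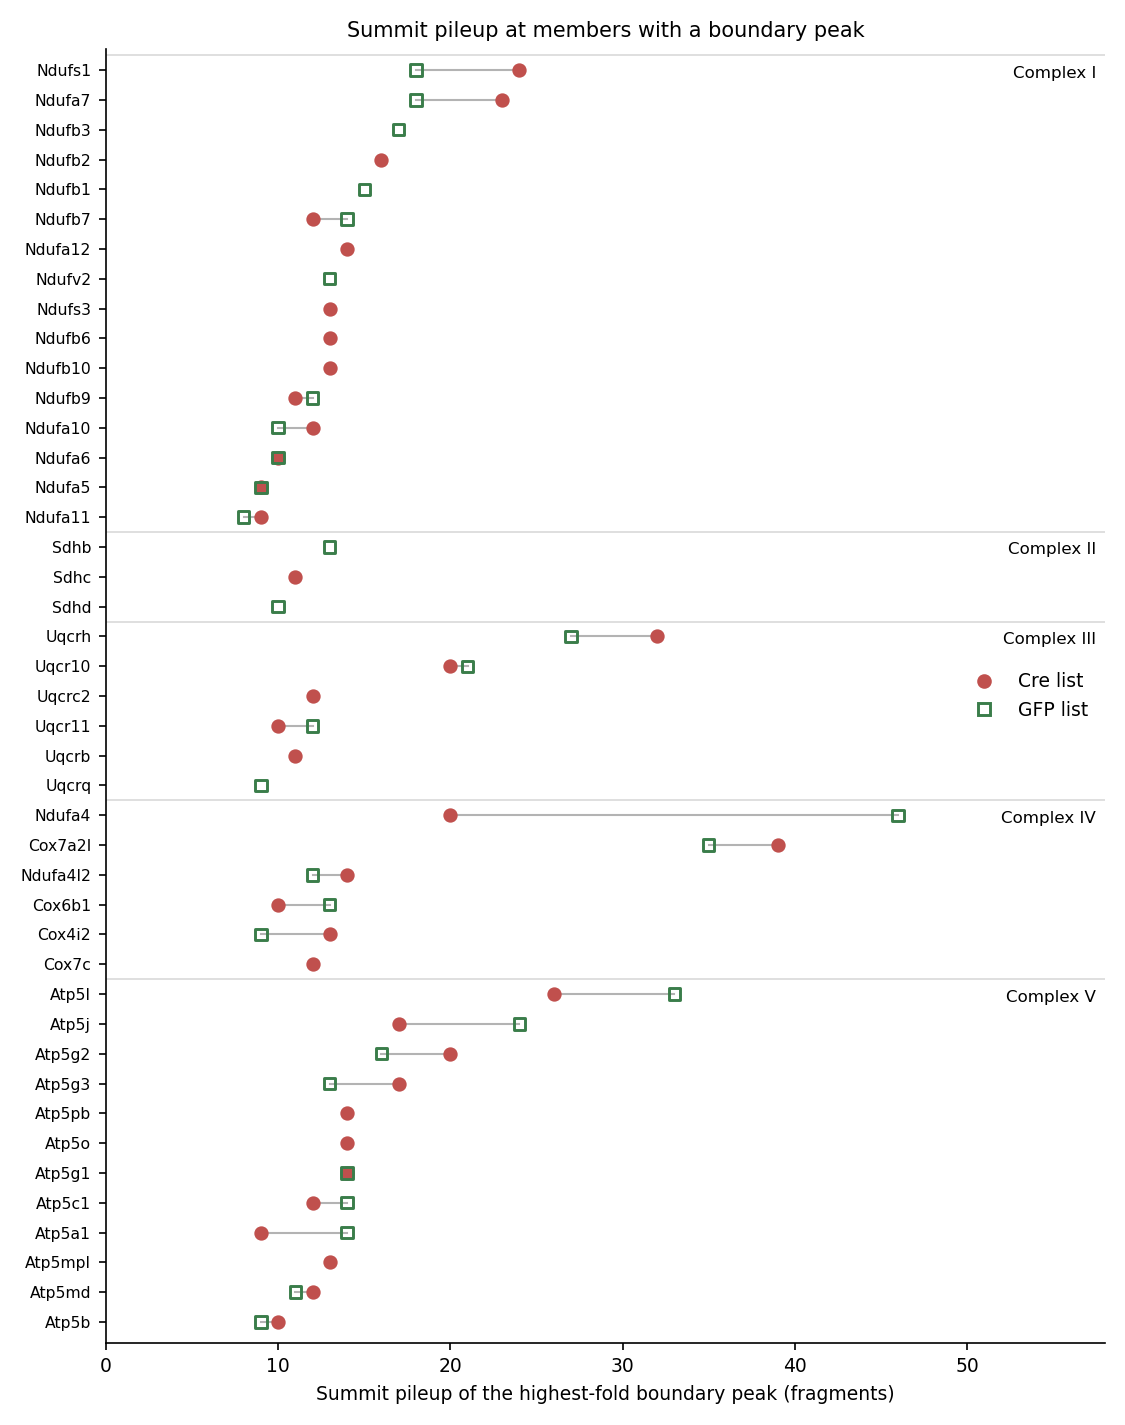
Summit pileup in fragments (horizontal axis) of the highest-fold boundary peak of the 43 marked members, grouped by complex, with filled circles for the Cre list and open squares for the GFP list; a grey line joins members marked in both. Ndufa4 has 46 fragments in GFP and 20 in Cre, Cox7a2l has 35 and 39, and members marked in 1 list lie between 9 and 17.

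Ndufa4 had the strongest peak of any member. Its GFP peak (chr6:11907510-11907711, mm10) had 46 fragments at the summit where 0.984 were expected, a fold of 23.7. In that list it stood at percentile 99.98 by fold. The Cre peak (chr6:11907536-11907702) had 20 fragments where 1.01 were expected, a fold of 10.5, and its summit lay 1 bp from the GFP summit. The ratio of GFP to Cre pileup was 2.3, with a 95% counting interval of 1.33 to 4.10. The peak lies 169 bp upstream of the Ndufa4 start by its Cre summit and within 1 kb of an end of Phf14, which codes for a PHD finger protein, so the 2 genes cannot be told apart.

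Cox7a2l had the next strongest peak, with no other gene end in its window. At chr17:83514404-83514580 the Cre library had 39 fragments (fold 15.6), and at chr17:83514396-83514571 the GFP library had 35 (fold 18.5). The GFP to Cre ratio was 0.897 (0.552 to 1.45), so the libraries did not differ beyond counting error. The summits lay 165 and 156 bp upstream of the start.

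Atp5l, subunit g of ATP synthase, had more than 1 peak beside its start in each list. The highest-fold peak had 26 fragments in Cre (fold 8.17) and 33 in GFP (fold 17.4), and a neighbouring peak had 35 in Cre (fold 7.35) and 31 in GFP (fold 16.4). Pileups were alike, while the folds stood further apart because the expected pileup was 2.30 and 3.90 fragments in Cre against 0.949 in GFP. At Uqcrh the same held: 32 fragments in Cre with 3.12 expected (fold 8.01) and 27 in GFP with 1.21 expected (fold 12.7). Its end is shared with Lrrc41.

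Atp5j had 17 fragments in Cre (fold 7.03) and 24 in GFP (fold 12.8), a ratio of 1.41 (0.727 to 2.80). Its peak lies at an end shared with Gabpa, the DNA-binding subunit of GABP, and is the boundary peak of both genes. Ndufs1 had 24 fragments in Cre (fold 12.4) and 18 in GFP (fold 9.75) at an end shared with Eef1b2, a translation elongation factor. Uqcr10 had 20 in Cre (fold 10.5) and 21 in GFP (fold 7.68) at an end shared with Zmat5. Atp5g3, with a window of its own, had 17 in Cre (fold 8.96) and 13 in GFP (fold 7.18). None of these 4 differed between libraries beyond counting error.

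The promoters of the 5 shared members of highest fold are printed to show the sequence beneath their peaks, since the summit of a boundary peak lay inside each of them in both lists. They run 5′ to 3′ on the strand of the gene, here the minus strand for all 5, from 250 bases before to 50 after a RefSeq start (RefSeq, GRCm38.p6, the coordinates of mm10). Capitals mark exact matches, on either strand, to GCATGCGC (NRF1), CCGGAAG (the ETS family) and AAGATGGCG (YY1). The intervals are chr6:11907401-11907700 for Ndufa4, chr17:83514284-83514583 for Cox7a2l, chr9:44920693-44920992 for Atp5l, chr16:84834927-84835226 for Atp5j and chr4:116075021-116075320 for Uqcrh.
Ndufa4: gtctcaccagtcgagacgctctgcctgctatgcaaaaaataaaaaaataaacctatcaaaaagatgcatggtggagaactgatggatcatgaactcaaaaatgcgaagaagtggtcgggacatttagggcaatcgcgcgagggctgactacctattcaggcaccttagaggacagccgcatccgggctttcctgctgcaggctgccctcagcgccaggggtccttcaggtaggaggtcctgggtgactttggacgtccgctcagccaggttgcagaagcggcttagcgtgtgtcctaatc
Cox7a2l: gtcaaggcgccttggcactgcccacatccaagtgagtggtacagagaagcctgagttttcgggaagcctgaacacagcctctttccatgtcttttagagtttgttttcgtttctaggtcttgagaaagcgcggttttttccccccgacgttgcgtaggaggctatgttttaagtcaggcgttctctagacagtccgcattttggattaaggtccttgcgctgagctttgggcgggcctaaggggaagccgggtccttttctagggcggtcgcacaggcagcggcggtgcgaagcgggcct
Atp5l: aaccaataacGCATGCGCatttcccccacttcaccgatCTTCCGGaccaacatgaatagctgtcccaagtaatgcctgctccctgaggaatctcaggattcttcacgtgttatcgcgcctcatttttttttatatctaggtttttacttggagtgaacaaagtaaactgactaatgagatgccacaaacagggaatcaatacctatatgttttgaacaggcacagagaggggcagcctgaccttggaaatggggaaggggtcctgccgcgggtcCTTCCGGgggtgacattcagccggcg
Atp5j: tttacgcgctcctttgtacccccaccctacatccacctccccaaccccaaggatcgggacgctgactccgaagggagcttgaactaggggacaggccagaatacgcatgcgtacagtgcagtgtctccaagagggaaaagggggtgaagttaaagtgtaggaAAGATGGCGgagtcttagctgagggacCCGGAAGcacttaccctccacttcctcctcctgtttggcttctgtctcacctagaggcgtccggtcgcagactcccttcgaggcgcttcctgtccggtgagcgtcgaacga
Uqcrh: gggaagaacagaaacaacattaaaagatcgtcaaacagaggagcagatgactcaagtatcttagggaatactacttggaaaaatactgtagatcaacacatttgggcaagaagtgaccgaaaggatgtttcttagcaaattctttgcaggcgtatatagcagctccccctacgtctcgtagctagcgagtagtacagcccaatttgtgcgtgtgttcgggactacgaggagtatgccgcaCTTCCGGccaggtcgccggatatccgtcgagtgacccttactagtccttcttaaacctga

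Ndufa4 and Cox7a2l, with the strongest peaks, held none of these 3 motifs in this window. Atp5l held the NRF1 letters with their first base 240 bases before the start and the ETS letters 212 bases before and 24 bases after it. Atp5j held the YY1 letters 88 bases and the ETS letters 61 bases before the start, and Uqcrh held the ETS letters 10 bases before it. A match is a description of letters and not a site of binding.

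Of the other shared members, Ndufa7 had 23 fragments in Cre and 18 in GFP at an end shared with Rps28, and Atp5g2 had 20 and 16 at its highest-fold peaks, which were not the same peak in the 2 lists. The highest-fold peaks of the remaining 15 had 9 to 14 fragments in Cre and 8 to 14 in GFP: Atp5a1, Atp5b, Atp5c1, Atp5g1, Atp5md, Cox4i2, Cox6b1, Ndufa4l2, Ndufa5, Ndufa6, Ndufa10, Ndufa11, Ndufb7, Ndufb9 and Uqcr11. Atp5a1, at an end shared with Haus1, had 9 fragments in Cre and 14 in GFP, while Cox4i2, with a window of its own, had 13 in Cre and 9 in GFP.

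Over the shared members the libraries were balanced. In 21 of the 25 a Cre and a GFP boundary peak overlapped by at least 1 bp. Among all genes, 1658 of the 2026 marked in both lists had such a pair, a like share. In the other 4 members the peaks stood apart, by 29 bp at Atp5g1, 40 bp at Ndufa5, 42 bp at Atp5md and 472 bp at Ndufa6. Across the 21 overlapping pairs the ratio of GFP to Cre pileup had a median of 1 and ran from 0.692 at Cox4i2 to 2.3 at Ndufa4, with 10 members higher in GFP, 10 higher in Cre and 1 equal. The 95% counting interval left out 1 at 1 member, Ndufa4, against 1.27% of the 1658 genes with overlapping boundary peaks. In that table Lrig3, Ndufa4 and Phf14 had the highest ratio, 2.3, and Ndufa4 and Phf14 share their peak.

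Counted by peak, 25 of the 52 Cre boundary peaks of members overlapped a GFP peak, 48.1% (34.0 to 62.4), beside 51.2% of all Cre boundary peaks. Of the 45 GFP peaks 26 overlapped a Cre peak, 57.8% (42.1 to 72.3), beside 49.2%. Overlap went with height. Among member peaks of 15 or more fragments, 10 of 13 in Cre (76.9%) and 11 of 13 in GFP (84.6%) were shared, beside 76.0% and 76.4% for all genes. Among those below 15 the shares were 15 of 39 (38.5%) and 15 of 32 (46.9%), and for all genes below 15 they were 39.5% and 37.4%.

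Members marked in the Cre list alone outnumbered those in the GFP list alone, 12 to 6, whereas among all genes 936 were marked in Cre alone and 1045 in GFP alone. The Cre share of members marked in 1 list was 66.7% (41.0 to 86.7), and that of all such genes 47.2% (45.0 to 49.5). The interval of the members holds the value of all genes.

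The Cre-alone members were 5 of complex I, 1 of complex II, 2 of complex III, 1 of complex IV and 3 of complex V. Ndufb2, an accessory subunit of the membrane arm, had the highest of these peaks, with 16 fragments (fold 8.39), 169 bp upstream of its start at chr6:39592333-39592488, and another Cre peak beside it. Atp5o had 14 fragments (fold 7.47) at chr16:91931189-91931350. Atp5pb had 14 (fold 6.97) in a peak 674 bp wide, the widest of this group, at chr3:105958316-105958989 and an end shared with Wdr77. In complex I, Ndufa12, of the matrix arm, had 14 fragments (fold 6.62), and Ndufb6 (fold 6.87), Ndufb10 (fold 6.97) and Ndufs3 (fold 6.97, at an end shared with Kbtbd4) had 13 each.

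Atp5mpl had 13 fragments (fold 6.87) and Cox7c, a small subunit of complex IV, had 12 (fold 6.47). Uqcrc2 had 12 fragments (fold 5.08), Uqcrb 11 (fold 5.98, at an end shared with Gm10767) and Sdhc 11 (fold 5.98). The highest-fold peaks of all 12 thus had 11 to 16 fragments, with a median of 13.

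The GFP-alone members were Ndufb3, Ndufb1 and Ndufv2 of complex I, Sdhb and Sdhd of complex II and Uqcrq of complex III. Ndufb3 had 17 fragments (fold 9.23) at chr1:58586379-58586556, an end shared with Fam126b, with the summit 52 bp after its start. Ndufb1 had 15 (fold 8.21) at an end shared with Cpsf2, with another GFP peak beside it. Ndufv2 and Sdhb had 13 each (fold 7.18), Sdhd had 10 (fold 5.64, at an end shared with Timm8b) and Uqcrq had 9 (fold 5.13, at an end shared with Gdf9). These 6 had a median of 13 fragments, as did the Cre-alone group.

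Peaks of the other list were mostly far from a peak in 1 list alone. Only Ndufb10 among the Cre-alone members had a peak of the other list within 10 kb of its boundary peak, at 4360 bp, and none of the GFP-alone members did, the nearest being at 11691 bp from the Sdhd peak. Measured from the gene, some were nearer: Ndufb6 (Cre alone) had a GFP peak 1280 bp from a gene end, Ndufb10 one at 2251 bp, and Sdhd (GFP alone) 2 Cre peaks within 10 kb, the nearest at 4029 bp. The heights of these peaks lay among those of the shared members, whose strongest peaks had a median of 13 fragments in Cre and 14 in GFP. Whether such a gene carried a peak just under the caller's threshold in the other culture cannot be read from the lists. Distances to the other list over all genes marked in 1 list are not given here, so those above do not set the members apart.

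Member peaks lay at gene starts. For 78 of the 96 members a RefSeq promoter entry gives the strand and start. All 28 of these that were marked in Cre and all 25 marked in GFP had a boundary peak on the start side, against 93.3% and 93.9% of all marked genes. One of them, Atp5g2, also had a GFP peak at its far end. The lowest share that these counts allow is 87.7% in Cre and 86.3% in GFP.

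**Figure D3:**
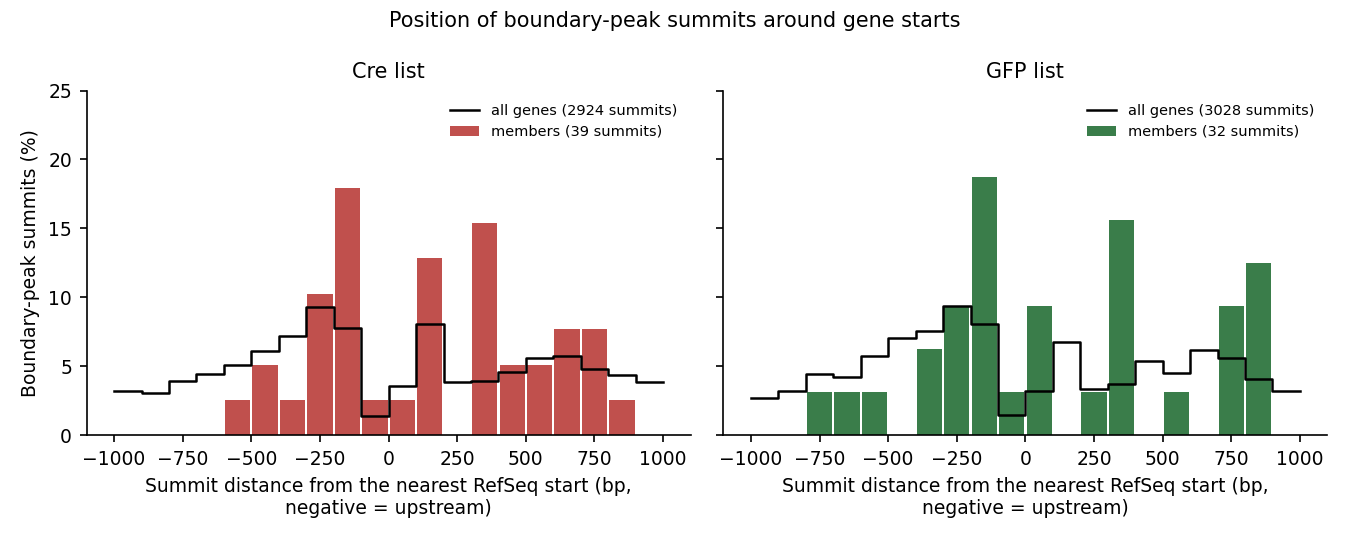
Distance of boundary-peak summits from the nearest RefSeq start in bins of 100 bp (horizontal axis, bp, negative upstream) against the share of summits (vertical axis, percent), for members (bars) and all genes (line), in the Cre list (left) and the GFP list (right). The line of all genes dips at the start itself, and the highest member bar in both lists is that from 200 to 101 bp upstream, at 17.9% in Cre and 18.8% in GFP.

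Summits of member peaks stood on both sides of the start. Of 40 member summits within 2 kb of a start in Cre, 11 lay 101 to 300 bp upstream, 27.5% (14.6 to 43.9), against 15.8% of all summits. In GFP 9 of 35 did, 25.7% (12.5 to 43.3), against 16.0%. The 200 bp around the start held 2 Cre summits (5.0%) and 4 GFP summits (11.4%), against 4.57% and 4.32%. Between 300 bp and 1 kb downstream lay 42.5% of the member summits in Cre and 37.1% in GFP, against 30.3% and 29.9%. The member intervals hold the values of all genes in each of these bins. Ndufa4, Cox7a2l, Uqcrh, Uqcr10, Atp5j and Atp5g3 were among the members with an upstream summit in both lists. Atp5b and Atp5c1 had theirs downstream in both, at 818 and 835 bp for Atp5b.

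More than other genes, members lie next to another gene. In 54 of the 96 (56.25%, 45.7 to 66.4) a boundary window also held an end of another protein-coding gene, against 24.8% of all genes. A peak there cannot be assigned to 1 of the genes. Of the 43 marked members, 21 had every boundary peak at a shared end and 22 had none there.

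Among genes with a shared window, 22 of 54 members were marked in Cre (40.7%) and 20 in GFP (37.0%), beside 25.4% and 26.0% of all such genes. Among the 42 members with a window of their own, 15 were marked in Cre (35.7%, 21.6 to 52.0) and 11 in GFP (26.2%, 13.9 to 42.0), beside 9.63% and 10.1%. The members' higher share was thus also present without shared ends. In these 42 members, 10 were marked in both lists, 5 in Cre alone and 1 in GFP alone. All genes with a window of their own stood at 6.45%, 3.18% and 3.66%.

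Over wider neighbourhoods, gene ends included, the libraries were also close in total. Within the members' genes and 10 kb on each side there were 97 Cre peaks covering 20632 bp and 87 GFP peaks covering 19727 bp. Cre thus held 52.7% of these peaks (45.2 to 60.1) and 51.1% of the covered length, beside 50.5% and 50.2% in the whole lists. The covered length was greater in Cre at 28 members and in GFP at 29, and 39 had no peak. By complex, the Cre share of the length was 50.9% in complex I and 62.1% in complex III. In complex II it was 68.4% (768 bp in Cre and 354 bp in GFP). It was 55.6% in complex IV, 45.8% in complex V and 41.3% around the assembly factors. Some of these shares rest on few peaks: 3 in Cre and 2 in GFP in complex II, 8 and 6 in complex III. Around the assembly factors there were 1 and 2. In each group the 95% interval of the Cre share of peaks held the 50.5% of the whole lists.

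The 3 members with the widest difference in covered length were Atp5g2, Ndufa4l2 and Ndufb9. Around Atp5g2 there were 8 Cre peaks (1775 bp) and 13 GFP peaks (4098 bp). Around Ndufa4l2, whose window takes in an end of Shmt2, a serine hydroxymethyltransferase of mitochondria, there were 9 Cre peaks (2129 bp) and 4 GFP peaks (832 bp). Around Ndufb9 there were 7 Cre peaks (1453 bp) and 1 GFP peak (254 bp). The boundary calls did not differ there: all 3 genes were marked in both lists.

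The promoters of members held the letters of NRF1, YY1 and the ETS family more often than promoters at large. Exact matches on either strand were counted in the 78 members and 17491 genes with a RefSeq promoter of 300 bases. The NRF1 letters GCATGCGC were in 12 members, 15.4% (8.21 to 25.3), against 3.93% of all genes. The YY1 letters AAGATGGCG were in 8, 10.3% (4.53 to 19.2), against 2.14%. All but those of Atp5j, 88 bases before the start, began 10 to 35 bases after the start. The ETS letters CCGGAAG were in 19, 24.4% (15.3 to 35.4), against 12.9%. Ribosomal protein promoters held the ETS letters more often than members, at 40.6%, with NRF1 at 4.69% and YY1 at 6.25%. The letters of the ERR receptors, AAGGTCA, were in 8 members, 10.3%, against 4.73%, which lies within the members' interval of 4.53 to 19.2. Member promoters held a median of 19.5 CpG dinucleotides, against 13 in all genes. The part of base content in these shares was not tested. The GC box GGGCGG (44.9% against 49.2%) and the NF-Y box CCAAT (43.6% against 42.3%) were about as frequent as in all promoters. So was the TATA box TATAAA (10.3% against 14.8%). Among genes marked in both lists, the GC box was in 40% of members (19.1 to 63.9) and 67.0% of all genes. Ribosomal protein promoters held it at 60.9%. Matches to different motifs overlapped in 1 member promoter, that of Ndufs3, for the ETS letters and the GC box.

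**Figure D4:**
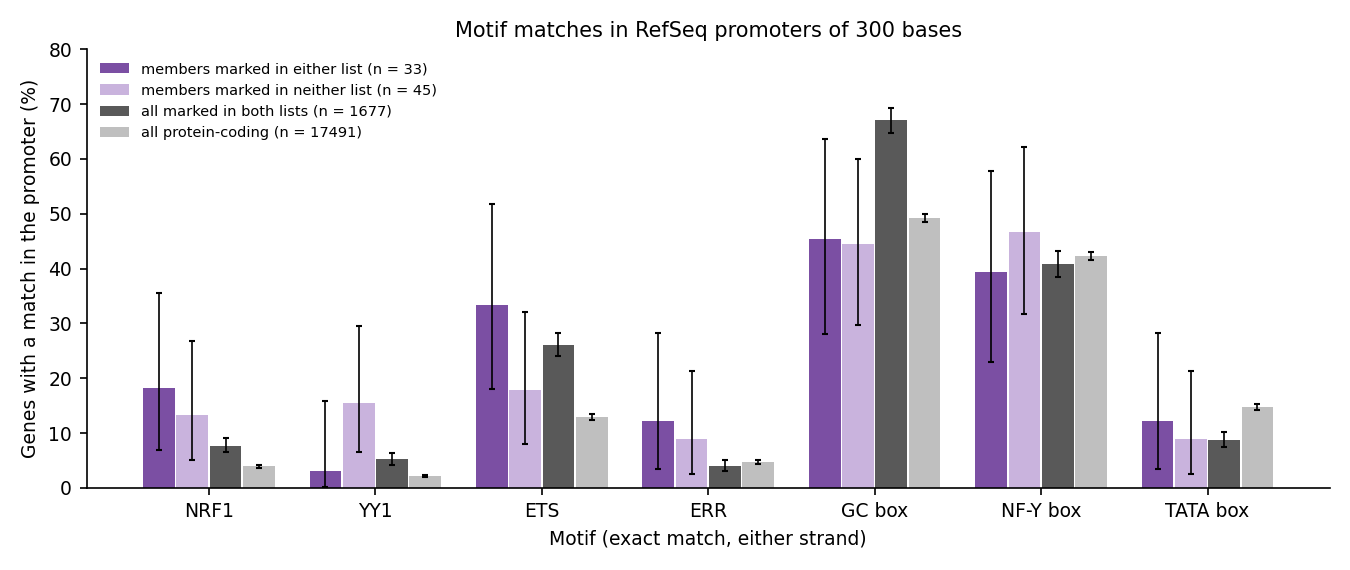
Share of genes whose RefSeq promoter of 300 bases holds an exact match to each motif on either strand (vertical axis, percent), for members marked in either list (33), members marked in neither (45), all genes marked in both lists (1677) and all protein-coding genes (17491). Whiskers are exact 95% binomial intervals; the ETS letters stand at 33.3%, 17.8%, 26.1% and 12.9% in these groups and the YY1 letters at 3.03%, 15.6%, 5.25% and 2.14%.

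Marked and unmarked members differed in which letters they held, within wide intervals. The ETS letters were in 11 of 33 marked members, 33.3% (18 to 51.8), and in 8 of 45 unmarked ones, 17.8% (8.0 to 32.1). In the narrower set of members marked in both lists they were in 7 of 20, 35% (15.4 to 59.2). All genes marked in both lists had them at 26.1%. The marked holders were Atp5j, Atp5l, Atp5md, Cox6b1, Ndufb7, Uqcr11 and Uqcrh in both lists, Ndufb6 and Ndufs3 in Cre alone, and Sdhb and Sdhd in GFP alone. For the YY1 letters, 1 marked member had them, Atp5j (3.03%, 0.0767 to 15.8), and 7 unmarked ones, Atp5j2, Ndufa9, Ndufaf8, Ndufc1, Ndufs4, Ndufs6 and Ndufs7 (15.6%, 6.49 to 29.5). Of the members marked in both lists, 1 of 20 had them, 5% (0.127 to 24.9), close to the 5.25% of all genes marked in both lists. Over all genes the order of marked and unmarked was the reverse, with 5.25% of genes marked in both lists and 1.55% of those marked in neither. The NRF1 letters were in 6 of each, 18.2% of the marked and 13.3% of the unmarked. For each of these motifs the intervals of marked and unmarked members overlapped.

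Genes that work with the members but lie outside the symbol rule were marked as follows. The shares of all genes to set beside these counts are 9.26% in both lists, 4.28% in Cre alone and 4.78% in GFP alone. In at least 1 list the share of all genes is 18.3%. Cycs, which codes for cytochrome c, the carrier between complexes III and IV, was marked in both lists, with 14 fragments in Cre and 16 in GFP, and Higd2a in GFP alone. Of 10 further complex I assembly factors none was marked in Cre and 3 were in GFP (Foxred1, Timmdc1 and Tmem186). With the 8 Ndufaf genes, no complex I assembly factor examined had a boundary peak in Cre, beside 13.5% of all genes, a share within the intervals of both lists of factors (up to 36.9% and 30.8%). Of 33 assembly factors of complexes II to V, 6 were marked in both lists, among them Cox20, Pet117, Cox14 and Lrpprc. Another 4 were marked in Cre alone (Uqcc3, Cox16, Cox19 and Taco1) and 6 in GFP alone (Lyrm7, Cox11, Cox15, Cox18, Coa3 and Coa7). In at least 1 list 48.5% of the 33 were marked (30.8 to 66.5).

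In the tricarboxylic acid cycle, which supplies NADH and succinate, 4 of 19 genes were marked in both lists. In at least 1 list 36.8% of the 19 were marked (16.3 to 61.6), an interval that holds the 18.3% of all genes. Suclg1, a succinate-CoA ligase subunit, had 45 fragments in Cre and 44 in GFP, and Cs (citrate synthase) and Mdh2 were also among them. Idh3g and Pdhx were marked in Cre alone and Dlst in GFP alone. Of 21 genes of glycolysis and the hypoxia response, 11 were marked in both lists, including Gapdh, Eno1, Tpi1 and Hif1a, and 3 in Cre alone: the glucose transporter Slc2a1, the hexokinase Hk2 and Pfkm. None of the 21 was marked in GFP alone, beside 4.78% of all genes, a share that can leave none among so few. In at least 1 list 66.7% of the 21 were marked (43.0 to 85.4), beside 18.3% of all genes.

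Of 16 regulators of mitochondrial biogenesis, 3 were marked in both lists: Gabpa, through the peak it shares with Atp5j, Hcfc1 and Tfb1m. Yy1 was marked in Cre alone, with 10 fragments, and Nrf1 (13 fragments) and Nfe2l2 (11 fragments) in GFP alone. In at least 1 list 37.5% of the 16 were marked (15.2 to 64.6), an interval that holds the 18.3% of all genes.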

How the data were processed

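Chondrocyte H3K27ac peak lists, 1 per library, were used as deposited. Each library had its own list, so calling was per library. Tools named are mm10 as the build, Picard, SICER, BWA and bcl2fastq 1.8.4, per the submitters' processing notes. The deposited columns follow MACS2 peak output; the sources used here do not give its version, settings or control library. Each deposited peak row carries a fold enrichment (a ratio), a −log10 p-value and a −log10 q-value at the summit, and a score that is the whole part of 10 times the −log10 q-value. Positions and summits are other deposited columns, given here 1-based on mm10.

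Fold and −log10 p-value were solved for observed and expected fragments at the summit, using an upper Poisson tail. Only whole numbers of observed fragments were tried. In both lists the best of them met the deposited −log10 p-value within 0.001 in 100% of peaks. The solution was tested on simulated data. Genes came from a RefSeq table of GRCm38.p6, without mitochondrial genes. Strand and start came from RefSeq promoters, matched by gene for 78 of 96 members. Windows reached 1 kb from either gene end, and peaks overlapped from 1 bp. Shares carry exact Clopper-Pearson 95% intervals. A pileup ratio carries an exact conditional binomial interval. These intervals cover counting error only: nearby peaks and amplified fragments are not independent. Pileups of 7 to 63 fragments leave wide error at a single peak.

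The members, gene lists, motifs and settings were chosen with earlier results of these data known. Every member with a boundary peak is named, with full values for the 5 of highest fold per list and for those in 1 list. From the 6 lists outside the symbol rule, up to 4 genes marked in both lists and all in 1 list may be named. The alternatives were other windows, thresholds, overlap rules and member sets. Coa1, Uqcc4, Uqcc5, Atp5mj and Atp5mk, listed by symbol, had no match in the table. The input libraries and the RNA-seq data of the series' design were not used here. Python 3.11.15, numpy 2.4.6, pandas 2.3.3, scipy 1.17.1 and matplotlib 3.10.9 were used.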

Additional observations from a re-analysis of the deposited data

How the results depend on the processing

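With 1 library per group, the lists describe 2 libraries, and a gene without a peak may lie just under the caller's threshold. Of 71 alternative values, 52 stayed within the interval of the value reported or within 1.5 times its count, and 19 moved. With a window of 500 bp the GFP share was 20.8% and 3 members were marked in GFP alone, against 14 in Cre alone. All genes stood at 10.25% in GFP, 3.86% in GFP alone and 3.45% in Cre alone. At a −log10 q of 5 or more the GFP share was 22.9% and 16 members were marked in both lists, beside 10.8% and 6.80% of all genes. At 10 or more both shares were 10.4%, 8 members were marked in both lists and 2 in each list alone, so that the lead of the Cre list among members in 1 list ended. Among the 5000 peaks of highest fold the shares were 26.0% in Cre and 20.8% in GFP, with 13 members in both lists. All genes stood there at 7.98% in Cre, 8.18% in GFP and 4.83% in both. Without the members that share a window with another gene end, 42 were left, 10 marked in both lists, 5 in Cre alone and 1 in GFP alone. All genes with a window of their own stood at 6.45%, 3.18% and 3.66%. These counts of members fall because fewer peaks or genes were counted. Over all genes the shares moved too. At a −log10 q of 10 or more they were 3.66% in Cre and 3.88% in GFP, with 1.37% in Cre alone and 1.59% in GFP alone. The members' share in each list stayed above that of all genes in each alternative listed. Boundary peaks of members counted as shared rose to 73.1% in Cre and 80% in GFP when a peak of the other list within 1 kb sufficed. At a −log10 q of 10 or more the share was 81.8% of 11 Cre peaks and 91.7% of 12 GFP peaks. Shares of all boundary peaks at these settings are not given here. Of all boundary peaks with 15 or more fragments, 76.0% in Cre and 76.4% in GFP overlapped the other list. The count that adds RefSeq starts was chosen after seeing the data and gave 26 members in both lists, 13 in Cre alone and 7 in GFP alone. All genes stood there at 10.4%, 4.58% and 5.13%. No paired analysis was possible because each group had 1 library and the labels give no replicate numbers.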
